A study of Mus musculus with 48 samples.

Results

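The sites described here are positions where HA-tagged ZBTB11 was called bound in mouse embryonic stem cells, away from the trimethylated histone H3 lysine 4 (H3K4me3) of wildtype cells. They were chosen by that mark: a ZBTB11 binding event was kept where no wildtype H3K4me3 domain lay within 500 bp, which gave 5533 of the 22432 events on assembled chromosomes (24.7%, Wilson 95% interval 24.1 to 25.2%). The other 16899 events, with such a domain, serve as the comparison. The absence of H3K4me3 is therefore a property of the choice and not a result, and most such domains lie at promoters, so the distance to genes follows in part from it.

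ZBTB11 was mapped by ChIP-seq of HA in Zbtb11KO cells that carry an inducible ZBTB11-HA copy, labelled Ainv15(iZbtb11-HA Zbtb11KO), after 3 d with doxycycline in +2i+LIF medium. The chromatin targets were mapped after 3 d without doxycycline in −2i+LIF medium. They were taken in those Zbtb11KO cells with the copy switched off, in Zfp131KO cells labelled Ainv15(iZfp131-HA Zfp131KO), in a double knockout labelled Ainv15(iZbtb11-HA iZfp131-V5 Zbtb11KO Zfp131KO) and in wildtype Ainv15(iCre) cells. Each genotype is named as 1 line, so a knockout and a difference between lines cannot be told apart. The kinase inhibitors of 2i also differ between the ZBTB11 map and the maps of the chromatin targets. A site bound only in 2i and a site bound in unmarked chromatin therefore cannot be told apart. The ZFP131-HA list, like that of ZBTB11, is labelled as +2i. No HA map of untagged cells was analysed here.

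Each group holds 2 libraries, but every file gives 1 value per site for the whole group, so no spread between libraries is available for levels at a site. The ZBTB11 event list rests on 26.2 M reads, of which 16.8% fell in events, and the other event lists rest on 24.0 to 71.6 M reads. In the 2 ZBTB11 libraries taken apart, 21.9% and 12.4% of reads fell in events. The shares were 2.7% and 8.0% for NELF in double knockout cells and 4.4% and 8.2% for CHD4 in Zbtb11KO. They were closer for wildtype CHD4 (6.6% and 7.1%) and wildtype SIN3A (32.6% and 34.0%). For wildtype NELF the list's header gives 1 replicate. Active chromatin in the wildtype cells fitted the stem cell label: 9 of 10 stem cell markers had H3K27ac within 1 kb of a gene end, against 0 of 8 fibroblast, 3 of 7 primitive endoderm and 1 of 6 neural markers, and 46.2% of all protein-coding genes.

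ZBTB11 is a zinc finger protein of the BTB family, and ZFP131 is another member of that family. H3K4me3 marks the nucleosomes beside active and poised start sites, where the methyltransferase SETD1A helps to write it and where the factor NELF holds RNA polymerase II shortly after initiation. H3K27ac marks active promoters and enhancers, H3K27me3 marks genes silenced by Polycomb, CHD4 is the remodelling ATPase of the NuRD complex, and SIN3A is the scaffold of a histone deacetylase complex. A transcription factor can also bind DNA far from promoters, at enhancers or at sequence with no active mark.

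Few of these sites lie in a stretch whose sequence was available, the RefSeq promoter windows of GRCm38.p6 (the assembly of mm10) that run from 250 bases before to 50 bases after a start. These windows held 68 of the sites away from H3K4me3, at 65 genes, so the sequences below describe the small start-site group alone. The first 4 are shown because they are the most strongly bound genes of that group with a direct repeat, in which a run of at least 15 bases comes back at least 10 bases further on. Capitals mark the repeated runs. They are Gm19583 (chr5:75110071-75110320, + strand), 4930552P12Rik (chr19:55702205-55702454, − strand), Gm16254 (chr10:7608676-7608925, − strand) and Tifab (chr13:56178886-56179135, − strand), each read 5′ to 3′ toward the gene's start.
Gm19583: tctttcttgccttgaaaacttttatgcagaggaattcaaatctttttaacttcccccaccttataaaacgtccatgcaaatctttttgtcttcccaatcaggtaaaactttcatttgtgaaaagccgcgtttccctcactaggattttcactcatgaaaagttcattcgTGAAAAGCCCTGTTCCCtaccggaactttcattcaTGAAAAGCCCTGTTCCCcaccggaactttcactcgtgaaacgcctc
4930552P12Rik: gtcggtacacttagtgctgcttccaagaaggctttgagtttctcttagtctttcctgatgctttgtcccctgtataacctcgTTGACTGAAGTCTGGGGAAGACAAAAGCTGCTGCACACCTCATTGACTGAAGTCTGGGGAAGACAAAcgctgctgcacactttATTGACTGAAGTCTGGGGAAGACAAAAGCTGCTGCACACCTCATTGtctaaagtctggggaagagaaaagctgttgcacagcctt
Gm16254: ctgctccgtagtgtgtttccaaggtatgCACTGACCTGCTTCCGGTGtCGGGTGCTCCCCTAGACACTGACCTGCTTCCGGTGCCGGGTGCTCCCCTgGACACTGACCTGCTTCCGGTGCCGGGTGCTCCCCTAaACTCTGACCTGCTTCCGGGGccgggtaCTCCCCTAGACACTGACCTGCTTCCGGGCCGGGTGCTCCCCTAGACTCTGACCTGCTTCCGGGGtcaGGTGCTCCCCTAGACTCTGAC
Tifab: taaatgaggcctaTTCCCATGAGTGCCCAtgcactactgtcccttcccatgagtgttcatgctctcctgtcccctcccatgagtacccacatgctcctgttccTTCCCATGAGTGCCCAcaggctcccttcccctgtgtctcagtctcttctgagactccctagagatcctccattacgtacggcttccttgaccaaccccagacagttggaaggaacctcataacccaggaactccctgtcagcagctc

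The copies are plain in these lines. In 4930552P12Rik a run of 45 bases came back 84 bases on, and in Gm16254 a unit about 36 bases long covered 209 of the 250 bases shown. Gm19583 and Tifab repeated shorter runs of 17 and 16 bases. ZBTB11 had 1575.1, 1326.5, 896.1 and 855.8 reads at the events in the Gm19583, 4930552P12Rik, Gm16254 and Tifab stretches, which places all 4 far above the median event. A repeat of this kind was present in the window of 9 of the 68 sites away from H3K4me3 (13.2%, Wilson 95% interval 7.12 to 23.3%), against 61 of 2722 windowed sites with H3K4me3 (2.24%) and 3.69% of all 32817 windows. Among windowed sites with over 200 ZBTB11 reads it was present in 6 of 14 away from H3K4me3 (42.9%, 21.4 to 67.4%), which come from the 4 genes shown, against 20 of 1062 with H3K4me3 (1.88%). The events at 4930552P12Rik share a window and its repeat, as do those at Gm16254. Both intervals count events as independent and are therefore too narrow. The repeats were noticed after the sequences had been seen. How reads were placed on repeated sequence was not tested.

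The next 3 are shown for the 6-letter core of ETS family sites, CCGGAA on either strand, which is in capitals. B230311B06Rik (chr7:118592197-118592284, + strand) and Ccdc152 (chr15:3303539-3303659, − strand) hold it close to the event, and Nsfl1c (chr2:151494105-151494181, + strand) does not hold it.
B230311B06Rik: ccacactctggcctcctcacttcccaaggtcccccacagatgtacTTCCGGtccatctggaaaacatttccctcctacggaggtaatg
Ccdc152: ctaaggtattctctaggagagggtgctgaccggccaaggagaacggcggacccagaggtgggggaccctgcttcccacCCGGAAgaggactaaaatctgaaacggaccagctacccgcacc
Nsfl1c: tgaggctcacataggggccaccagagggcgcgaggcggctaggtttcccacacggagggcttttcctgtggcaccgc

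These events had 763.1 ZBTB11 reads at B230311B06Rik, 332.7 at Ccdc152 and 1104.0 at Nsfl1c. The core was 12.5 bp from the event in B230311B06Rik and 20.5 bp from it in Ccdc152. Gm16254, above, holds 6 copies of the core, and Gm19583 holds 2. A strongly bound stretch can therefore hold many cores, 1 or none.

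Across promoter windows, the core was as frequent away from H3K4me3 as with it. It stood in 42 of 76 windows that hold a site away from H3K4me3 (55.3%, Wilson 95% interval 44.1 to 65.9%), in 55.8% of windows that hold a site with H3K4me3, and in 14.9% of all windows. The 8-letter site CCGGAAGT, which contains the core, was in 22.4% and 22.2% of those windows and in 3.89% of all. The windows differed in other letters. GGGCGG, the site of SP and KLF factors, was in 21.1% of windows away from H3K4me3, 61.6% of windows with it and 35.6% of all. The median window held 7 CpG pairs away from H3K4me3, as in all windows, and 24 with H3K4me3, and the GC content was 52.5%, 63.0% and 52.7% in windows away from H3K4me3, windows with it and all windows. The bound start sites away from H3K4me3 were thus poorer in CpG than those with it.

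Exact matches to other motifs were rare in windows of sites away from H3K4me3, all searched on both strands. Each motif was searched as a fixed string, so other forms of a factor's site were not counted. The Nsfl1c stretch above holds AGAGGGC, which is close to AGGGGGC but is no match. AGGGGGC (CTCF) was in 3.95% of them, 13.3% of windows with H3K4me3 and 10.6% of all, and CACGTG (E-box) in 2.63%, 9.53% and 7.15%. ATGCAAAT (OCT factors) was in 2.63%, 0.439% and 1.74%, and CTCGCGAG (ZBTB33) and AAGATGGCG (YY1) in 1.32% each, against 1.89% and 3.25% with H3K4me3 and 0.920% and 1.40% of all. GCGCATGCG (NRF1), TGACGTCA (CRE) and the tRNA B-box GTTCGANTC were in 0 of the 76 windows, and in 1.75%, 1.79% and 0.168% of all windows. With 76 windows, a motif of such low frequency can be missed by counting error alone. A match is a description of letters and not of a bound factor.

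**Figure D1:**
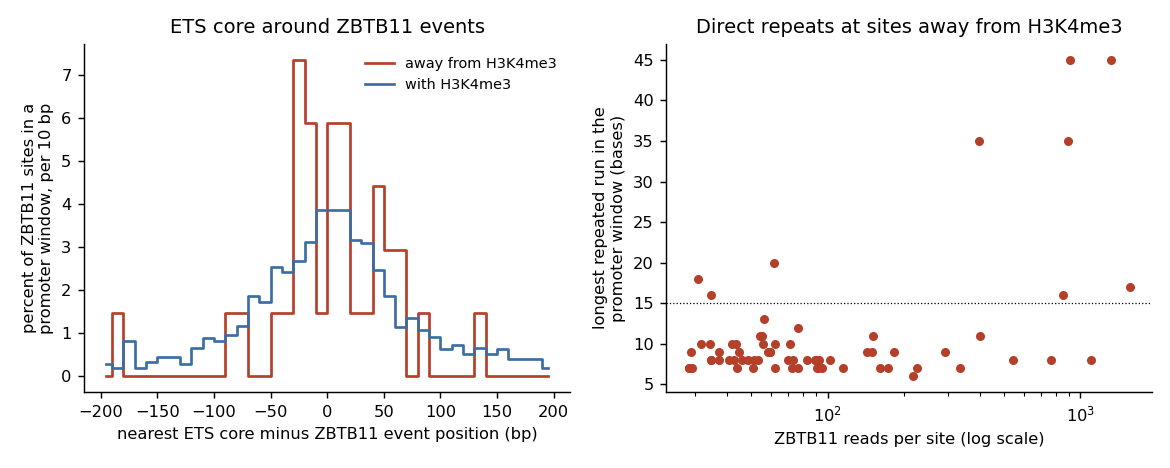
Left, the distance in bp from the ZBTB11 event to the nearest ETS core for sites in promoter windows, as percent of sites per 10 bp, away from H3K4me3 (red, 68 sites) and with H3K4me3 (blue, 2722 sites). Right, the longest repeated run in bases against ZBTB11 reads (log scale) for the 68 sites, with the limit of 15 bases dotted; 6 of the 9 sites past the limit have over 200 reads.

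In the plot of core positions both groups peak near the event. The nearest core lay within 20 bp in 13 of 68 sites away from H3K4me3 (19.1%) and in 400 of 2722 with it (14.7%). Where a core was present, its median distance was 25.5 bp away from H3K4me3 and 44.5 bp with it.

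ZBTB11 reads, summed by the authors over both libraries, were fewer at sites away from H3K4me3. The median was 58.7 reads (quartiles 40.6 and 98.1, highest 1741), against 81.1 with H3K4me3 (quartiles 55.2 and 149, highest 2738). Control reads were also fewer, with a median of 10.3 against 19.1, so the median log2 fold over control was 3.93 away from H3K4me3 and 3.50 with it. Weak events were more often away from the mark: 2181 of 5281 events of up to 50 reads (41.3%) were, against 320 of 2015 with 200 to 400 reads (15.9%) and 28 of 630 with over 1000 reads (4.44%). The group therefore holds many events near the calling limit, and its 28 strongest sites are a small part of it.

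The 10 sites with the most reads had 1247.1 to 1741.0. They are named here by the nearest end of a protein-coding gene, which says nothing of the gene's control. Sites at the start or end of a noncoding gene are given that gene's name where it is stated. The strongest lay 117 bp from an end of Nsfl1c, which encodes the p97 cofactor p47. Next came sites by Mta3 (1712.5 reads, chr17:83690522), a NuRD subunit gene, Gsx2 (1575.1 reads, at the start of the lncRNA Gm19583), Slc45a1 (1526.9 reads) and Eno2 (1363.5 reads), the gene of neuronal enolase. Sites by Plekhg6, Tcf7l2, Lbx1, Camk1d and Hmga2 had 1348.1, 1326.5, 1277.3, 1276.4 and 1247.1 reads. Of the 10, only the Nsfl1c and Eno2 sites lay within 1 kb of a protein-coding gene end.

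Sites away from H3K4me3 were mostly distal. The median distance to the nearest protein-coding gene end was 23772 bp, against 544 bp for sites with H3K4me3. Within 1 kb of such an end lay 245 sites (4.43%, Wilson 95% interval 3.92 to 5.00%), against 62.9% with H3K4me3. A further 26.5% lay at 1 to 10 kb, 49.7% at 10 to 100 kb and 19.4% beyond 100 kb, against 21.4%, 12.6% and 3.10% with H3K4me3. Inside a protein-coding gene lay 46.5% of sites away from H3K4me3 and 74.7% of those with it.

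**Figure D2:**
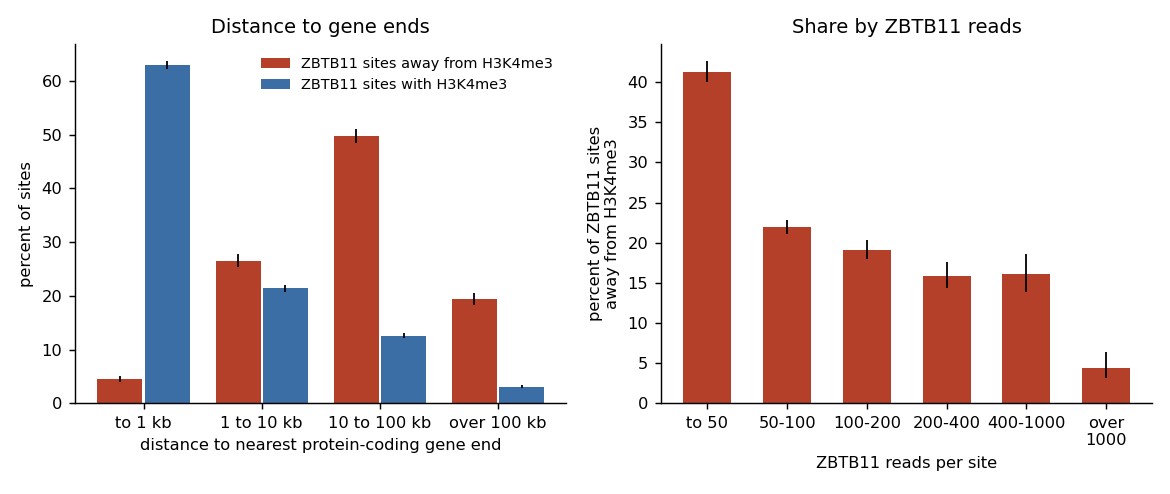
Left, percent of ZBTB11 sites by distance to the nearest protein-coding gene end, away from H3K4me3 (red, n = 5533) and with it (blue, n = 16899). Right, percent of all ZBTB11 sites that are away from H3K4me3, by ZBTB11 reads per site; it is 41.3% up to 50 reads and 4.44% over 1000 reads. Error bars are Wilson 95% intervals, which cover counting error only.

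Where these sites did lie near a gene end, the gene was often noncoding. Counting genes of every kind, 587 lay within 1 kb of an end. The nearest end belonged to a lncRNA gene in 47.0%, a protein-coding gene in 40.03% and a pseudogene in 9.03% of them, against 11.4%, 86.0% and 0.725% of the 11586 such sites with H3K4me3. Among sites that could be placed, 170 of 5366 (3.17%) had a RefSeq start site within 500 bp, against 51.3% with H3K4me3. Of those 170, 82 were near none of the 8 chromatin and factor lists described below, and 15 were near SIN3A, NELF and SETD1A together.

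Most sites lay far beyond the limit of 500 bp. The median distance to the nearest wildtype H3K4me3 domain was 15096 bp, and 4891 sites lay over 2000 bp away and 4137 over 5000 bp. Just past the limit were sites by Pcdh18 (501 bp, 55.8 reads), Robo1 (502 bp, 59.1 reads) and Jarid2 (504 bp, 69.1 reads). Just inside it, and left out, were sites by Zpld1 (499 bp, 140.6 reads), Tuba1c (499 bp, 35.7 reads) and Kif20b (498 bp, 88.6 reads). Most sites stood alone: chained at 2000 bp, 4939 were single, 217 groups held 2, 39 held 3 and 5 held 4, and single groups held 5, 6 and 12. Neighbours in a group share sequence and reads and are not independent.

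Most sites away from H3K4me3 carried no other listed signal. Of the 5533, 3514 (63.5%) had no entry within 500 bp in any of 8 lists, against 637 of the 16899 sites with H3K4me3 (3.77%). The 8 lists are the wildtype H3K27ac, H3K27me3, polymerase II phosphorylated at serine 5 (POL2S5P), CHD4, SIN3A, NELF and SETD1A lists and the ZFP131-HA list. The bare sites had a median of 59.4 ZBTB11 reads, against 57.3 for sites near at least 1 list. Of the sites with 400 to 1000 reads, 111 of 155 (71.6%) were bare, and of those with over 1000 reads, 13 of 28 (46.4%). The strongest bare sites were those by Gsx2 (1575.1 reads) and Tcf7l2 (1326.5 reads), whose sequences are printed above, and by Flt1 (1180.1 reads) and Mc3r (1171.1 reads).

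Every list was less frequent away from H3K4me3. POL2S5P was near 18.3% of sites away from H3K4me3 and 82.0% of sites with it, NELF near 16.4% and 90.3%, and SIN3A near 15.6% and 90.7%. H3K27ac was near 11.9% (659 sites) and 73.0%, and SETD1A near 2.98% and 70.5%. The Polycomb mark H3K27me3 lay near 4.36% (241 sites) and 24.6%, and CHD4 near 2.40% (133 sites) and 17.0%. ZFP131 was near 30 sites away from H3K4me3 (0.542%), against 17.2% of sites with it. Of those 30, 12 form a single group by Tubb3, so 18 other sites carried both factors.

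**Figure D3:**
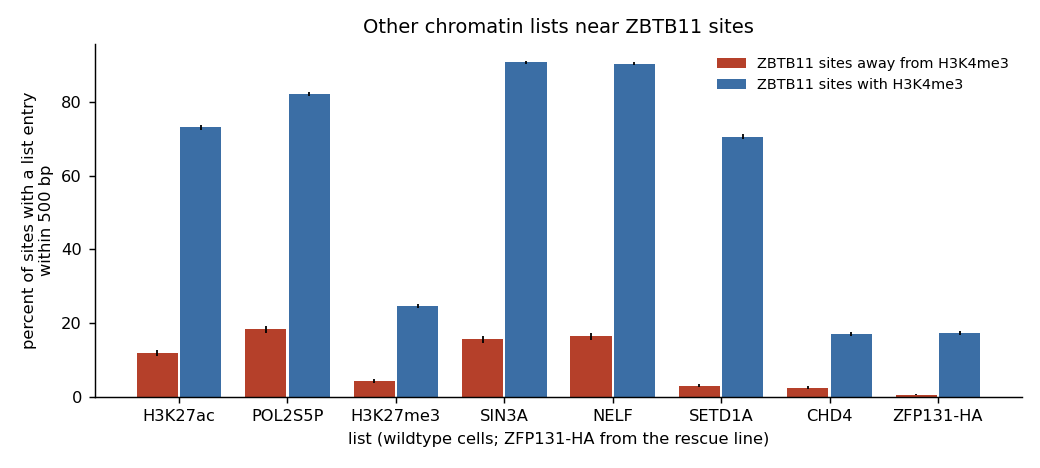
Percent of ZBTB11 sites with an entry of each list within 500 bp, away from H3K4me3 (red, n = 5533) and with it (blue, n = 16899). Bars are shares with Wilson 95% intervals, which cover counting error only; every red bar is below 20% and below its blue partner.

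Where a signal was listed, it held fewer reads than beside sites with H3K4me3. The median domain near a site away from H3K4me3 held 30 H3K27ac reads, against 209 near a site with H3K4me3, and the corresponding H3K27me3 values were 19 and 503 reads. The median NELF event held 73.6 against 335.4 reads and the median SIN3A event 64.5 against 200.8. CHD4 differed less, with 50.4 against 61.45 reads. Over whole wildtype lists the medians were 24 reads for H3K27ac, 21 for H3K27me3, 53.1 for CHD4, 107.3 for NELF and 89.4 for SIN3A. Against these, H3K27ac was higher near sites away from H3K4me3, H3K27me3 and CHD4 were close, and NELF and SIN3A were lower. Each site was given its entry with the most reads within 500 bp. All these read counts are sums over pooled libraries, with no spread between libraries. The lists also overlapped one another: of the 133 sites near CHD4, 68 were near H3K27ac (51.1%) and 94 near NELF (70.7%), while 10 of the 241 sites near H3K27me3 were near H3K27ac.

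Single sites show the range. Nsfl1c (chr2:151494299, 1741.0 ZBTB11 reads) was near 6 lists, with 210 H3K27ac, 219.7 SIN3A, 911.9 NELF, 541.7 SETD1A, 608 POL2S5P and 104.7 ZFP131 reads, yet its nearest H3K4me3 domain was 47377 bp away. It thus carried the other signals of a start site. A site by Septin9 (chr11:117285778, 647.0 ZBTB11 reads) had 512.7 ZFP131 reads, and a site by Cradd (1189.2 reads), an adaptor gene of cell death, lay by 226 H3K27ac reads. Among sites near H3K27me3 named for their ZBTB11 reads, those by the transcription factor genes Tbx21 (763.7 ZBTB11 reads, 1703 H3K27me3 reads) and Twist1 (507.1 and 1004 reads) had large domains, while the domains at Daam1 and Lcp2 held 28 and 15 reads. Among sites by CHD4, Xpnpep1 had 332.7 ZBTB11 reads, Pxylp1 322.5, Pkd1l2 293.5 and Scaf4 289.4, with 39.2 to 99.6 CHD4 reads.

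The change of each target was taken from the authors' deposited DESeq2 tables, in which a positive log2 fold change means higher in the knockout, and a region was called at a Benjamini–Hochberg adjusted p under 0.05 over the whole table. A site was given the region of highest mean signal within 500 bp. Both knockouts were compared with the same wildtype libraries, so their values below are set side by side and a likeness between them is not a result. Each table joins regions listed in either genotype, except that of SIN3A in Zfp131KO. That table held a region by 559 of the 861 sites near a wildtype SIN3A event, and how its regions were chosen is not known. Outside NELF and that table, a site with no wildtype entry is in a table mostly because the knockout listed it. Higher calls are favoured there by construction. A site with a wildtype entry was likewise chosen by a call in wildtype, which favours lower calls. Neither class is free of this, so counts of wildtype-listed sites are set beside all regions of that table near a wildtype entry. Those of them with neither ZBTB11 nor H3K4me3 are given as well. Counts over all sites mix both classes. Sites are named by the size of their called change among regions whose mean signal reached the table's median, and a few others by their place in a gene list or by ZBTB11 reads.

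H3K27ac was called higher at more of these sites than lower. In the authors' deposited table for Zbtb11KO, 218 of 911 sites were higher (23.9%) and 74 lower (8.12%), with a median log2 of 0.29, where 14.6% of all regions were higher and 11.8% lower. Their table for Zfp131KO had 265 of 949 higher (27.9%) and 97 lower (10.2%), median 0.38, where all regions had 15.8% and 14.3%. Regions with neither ZBTB11 nor H3K4me3 had 23.3% higher in Zbtb11KO and 24.3% in Zfp131KO, so a high share of higher calls was common to unmarked regions with and without ZBTB11. The sites with H3K4me3 had 3.29% and 5.11% higher. Of the 659 sites with wildtype H3K27ac, 73 were higher (11.1%) and 73 lower (11.1%) in Zbtb11KO (median −0.11), and 119 (18.1%) and 97 (14.7%) in Zfp131KO (median −0.10). All regions near a wildtype domain had 6.25% higher and 14.2% lower in Zbtb11KO, and 7.79% and 17.6% in Zfp131KO. Of these, regions with neither ZBTB11 nor H3K4me3 had 8.48% higher and 17.1% lower in Zbtb11KO, and 10.6% and 22.6% in Zfp131KO. Without a wildtype entry, 145 of 252 sites in Zbtb11KO and 146 of 290 in Zfp131KO were called higher.

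**Figure D4:**
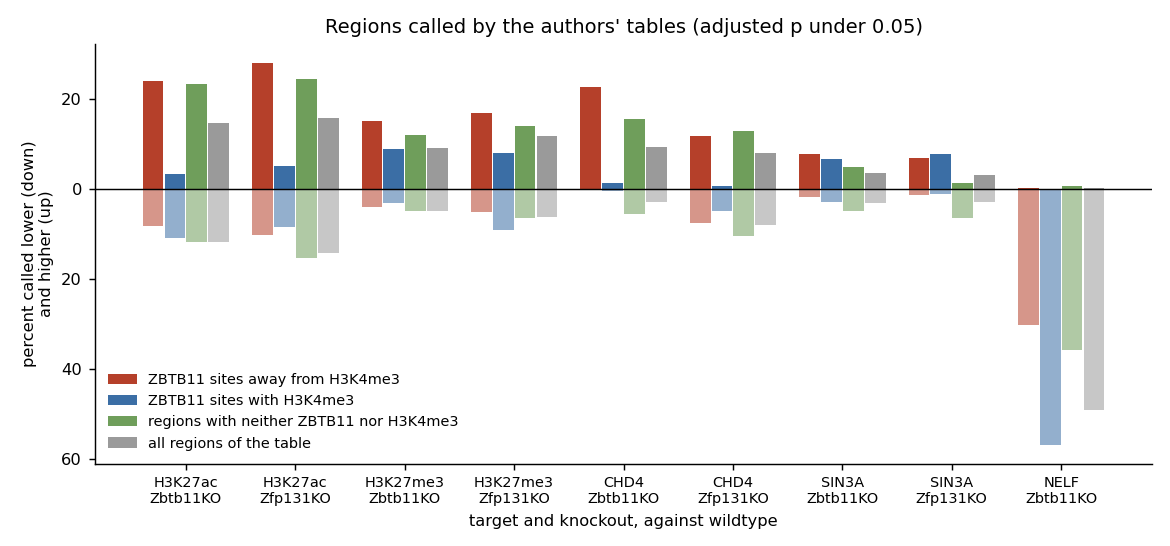
Percent of regions called higher (up, full colour) and lower (down, pale) at an adjusted p under 0.05 in the authors' DESeq2 tables, for each target and knockout against wildtype. Red bars are ZBTB11 sites away from H3K4me3, blue bars ZBTB11 sites with it, green bars regions with neither, and grey bars all regions; NELF in Zbtb11KO is the table dominated by lower calls, 49.0% of all regions.

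One of the larger domains with a rise was by Tmem64. At that site (chr4:15243292, 160.6 ZBTB11 reads) the domain held 227 reads in Zbtb11KO, 243 in Zfp131KO and was not listed in wildtype. The authors' deposited DESeq2 tables gave it log2 2.57 ± 0.42 in Zbtb11KO (SE, adjusted p = 6.28e-08) and 2.43 ± 0.35 in Zfp131KO (adjusted p = 5.66e-10). Both knockouts are high there and wildtype low. By Hmga2 (chr10:120432225, 1247.1 ZBTB11 reads), the gene of an architectural chromatin protein, H3K27ac fell by 1.58 in Zbtb11KO and fell by 1.97 in Zfp131KO on the log2 scale of the authors' deposited DESeq2 tables (adjusted p = 4.68e-06 and 0.0177), from a wildtype domain of 11 reads.

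Other rises in the authors' deposited table for Zbtb11KO were by Amy2b (log2 3.30), Rab11fip4 (3.12) and B3gnt2 (2.49), and for Zfp131KO by Col28a1 (3.13), Plet1 (2.72) and Chrna9 (2.65). In that order the domains held 34, 36 and 72 reads in Zbtb11KO and 100, 12 and 46 in Zfp131KO. None of these was listed in wildtype. Falls were by Arhgef17 (−2.47), Eif4ebp1 (−1.75), Tex14 (−1.74) and Stx11 (−1.69) in Zbtb11KO, and by Ppard (−2.74) and Trim41 (−2.49) in Zfp131KO, all from the authors' deposited tables. Those 6 wildtype domains held 10 to 12 reads each, and the one by Trim41 held 14 in Zfp131KO, so list and table disagree there. A locus with a larger domain was by Golga4 (chr9:118496533), within 50 kb of Eomes, a mesoderm regulator. It had 107 H3K27ac reads in wildtype, and H3K27ac fell by 1.95 in Zbtb11KO and by 1.52 in Zfp131KO on the log2 scale of the authors' deposited DESeq2 tables (adjusted p = 0.000149 and 0.000813).

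H3K27me3 changes followed the same division. In the authors' deposited table for Zbtb11KO, 65 of 429 sites were higher (15.2%) and 17 lower (3.96%), where all regions had 9.1% and 4.83%. In the table for Zfp131KO, 71 of 422 were higher (16.8%) and 22 lower (5.21%), where all regions had 11.7% and 6.18%. Regions with neither ZBTB11 nor H3K4me3 had 12.04% and 13.9% higher. The median log2 was 0.27 at these sites in both tables. With regions that cover the event, the Zfp131KO direction turned, to 9 higher and 10 lower at a median of −0.23. Of the 241 sites with wildtype H3K27me3, 5 were higher (2.07%) and 17 lower (7.05%) in Zbtb11KO, and 3 higher (1.24%) and 22 lower (9.13%) in Zfp131KO. These shares are near those of all regions by a wildtype domain, 2.09% and 6.55% in Zbtb11KO and 3.11% and 8.06% in Zfp131KO. Of these, regions with neither ZBTB11 nor H3K4me3 had 2.63% and 7.67% in Zbtb11KO, and 3.36% and 9.31% in Zfp131KO. The other higher calls among the sites were at those listed in the knockout and not in wildtype, 60 of 188 in Zbtb11KO and 68 of 181 in Zfp131KO.

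At sites beside strong Polycomb domains the falls were moderate. By Otp, a homeobox gene of the hypothalamus (chr13:94870299), the domain held 407 reads in Zbtb11KO, 173 in Zfp131KO and 4751 in wildtype. By Zic4, a zinc finger gene of the cerebellum (chr9:91378879), it held 1585, 436 and 2274 reads in the same order. Both loci were lowest in Zfp131KO, where reads are summed over domains whose widths differ. The authors' deposited DESeq2 table gave −1.08 ± 0.34 by Otp (SE, log2, adjusted p = 0.0125) and −1.17 ± 0.33 by Zic4 (adjusted p = 0.00578) for Zfp131KO. At Fgf5, a gene of the formative state, the table value was −0.96 ± 0.35 in Zfp131KO (adjusted p = 0.0363) and −0.41 ± 0.31 in Zbtb11KO (adjusted p = 0.403), in the same DESeq2 tables. At Tbx21 and Twist1 no H3K27me3 change passed the test.

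The other H3K27me3 changes named by size were at domains of 12 to 19 reads in the genotype where H3K27me3 was higher. In Zbtb11KO they were rises by Igfbp7 (log2 2.55), Fam174a (2.40), Skap1 (2.27) and Arhgap20 (2.18) and falls by Hoxb13 (−1.94), Park7 (−1.72), Cbln4 (−1.53) and Nfam1 (−1.49), in the authors' deposited table. In Zfp131KO the same source gave rises by Cpne5 (3.21), 4931429L15Rik (2.88) and Wdr26 (2.47), and falls by Pkp1 (−2.35) and Slc28a2 (−1.39). The site by Zfp180, at 12 reads in Zfp131KO, was also called higher, but its fitted value depends on a wildtype level near 0 and is not read as a size. The site by Zbtb11 itself (chr16:56007168, 27.3 ZBTB11 reads) lies below the table's median signal. H3K27me3 was called higher there in Zbtb11KO (log2 5.10 ± 1.03, SE, adjusted p = 3.85e-05 in the authors' deposited DESeq2 table). At such low signal that value is not read as a size either. Zbtb11 is the gene knocked out in these cells, and the part of that in the call was not tested.

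CHD4 was called higher in Zbtb11KO at 65 of 287 sites (22.6%) and lower at 1 (0.348%), with a median log2 of 0.47, where 9.4% of all regions in the authors' deposited table were higher and 2.82% lower. Regions with neither ZBTB11 nor H3K4me3 had 15.5% higher and 5.64% lower, and ZBTB11 sites with H3K4me3 1.40% and 0.484%. In Zfp131KO 53 of 455 were higher (11.6%) and 34 lower (7.47%), median 0.33, where all regions had 8.05% and 8.09%. Regions with neither ZBTB11 nor H3K4me3 had 12.9% higher and 10.4% lower there, median 0.31, so the share of higher calls at the sites was not above theirs. The listing divides these calls as well. At the 133 sites with a wildtype CHD4 event, 14 were higher and 1 lower in Zbtb11KO, and 1 higher and 27 lower in Zfp131KO. All regions near a wildtype CHD4 event had 1.16% higher and 3.70% lower in Zbtb11KO, and 0.604% and 15.9% in Zfp131KO. Of these, regions with neither ZBTB11 nor H3K4me3 had 1.13% higher and 8.42% lower in Zbtb11KO, and 1.19% and 27.5% in Zfp131KO. A group of 12 sites by Tubb3 gives 12 of the higher calls in Zbtb11KO and 12 of the lower calls in Zfp131KO. Without that group the CHD4 counts are 53 higher and 1 lower in Zbtb11KO, and 53 higher and 22 lower in Zfp131KO. Among the sites with a wildtype event, 121 are left without it, of which 2 were higher and 1 lower in Zbtb11KO, and 1 higher and 15 lower (12.4%) in Zfp131KO.

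The highest CHD4 change in Zbtb11KO among regions at or above the median signal was by Ninl (chr2:150948554, 66.5 ZBTB11 reads), the gene of a centrosomal protein. The event held 85.0 reads in Zbtb11KO, 92.3 in Zfp131KO and was not listed in wildtype. The CHD4 event list of Zfp131KO was also deposited as that of SIN3A, so which target its reads belong to is open. In the authors' deposited DESeq2 tables its log2 was 2.38 ± 0.45 in Zbtb11KO (SE, adjusted p = 1.53e-05) and 1.76 ± 0.40 in Zfp131KO (adjusted p = 0.000396). H3K27ac at the site was higher as well, with log2 1.91 in Zbtb11KO and 2.08 in Zfp131KO, and its domain held 413, 423 and, in wildtype, 10 reads. A site 110 bp from the lncRNA 1190028D05Rik (chr8:52356721) had 118.1 CHD4 reads in Zbtb11KO, 63.8 in Zfp131KO and none listed in wildtype, with log2 1.78 ± 0.39 in the authors' deposited DESeq2 table for Zbtb11KO (adjusted p = 0.000262).

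By Reep3 (chr10:66864791, 1175.5 ZBTB11 reads), CHD4 rose by log2 1.98 in Zbtb11KO and 1.75 in Zfp131KO, SIN3A by 2.09 and 2.39, and H3K27ac by 1.94 and 1.53, in the authors' deposited tables. It lies on chromosome 10 between 58 and 68 Mb, where the median log2 of all regions was 1.01 for CHD4, 0.59 for SIN3A and 0.76 for H3K27ac in Zbtb11KO and 1.00, 0.63 and 0.99 in Zfp131KO. The part of this stretch in the change at Reep3 was not tested. Other CHD4 rises of the authors' deposited table for Zfp131KO were by Ffar3 (log2 1.95), Rapgef5 (1.87) and Ptgis (1.81). By Pkd1l2 (chr8:117019486), CHD4 fell by 1.69 ± 0.46 in Zfp131KO (SE, log2, adjusted p = 0.00406 in the authors' deposited DESeq2 table) and stood at −0.90 ± 0.49 in Zbtb11KO (adjusted p = 0.253). H3K27ac at that site fell by 1.20 in Zbtb11KO and fell by 4.06 in Zfp131KO on the same scale, from 102 wildtype reads.

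SIN3A changed at few of these sites. In the authors' deposited table for Zbtb11KO, 93 of 1196 were higher (7.78%) and 22 lower (1.84%), median log2 0.14, where all regions had 3.44% and 3.23%. In the table for Zfp131KO, 43 of 634 were higher (6.78%) and 9 lower (1.42%), median 0.10, where all regions had 2.98% and 2.84%. Regions with neither ZBTB11 nor H3K4me3 had 4.83% higher and 4.83% lower in Zbtb11KO, and 1.24% and 6.42% in Zfp131KO, while sites with H3K4me3 had 6.61% and 7.74% higher. At sites with a wildtype SIN3A event the split was 32 higher and 19 lower of 861 in Zbtb11KO, and 29 and 8 of 559 in Zfp131KO. The Zfp131KO table held no region by the rest of the 861. Without the 12 sites by Tubb3 the Zbtb11KO split was 20 higher and 19 lower of 849. All regions near a wildtype SIN3A event had 2.58% higher and 3.35% lower in Zbtb11KO, and 2.92% and 2.85% in Zfp131KO. Of these, regions with neither ZBTB11 nor H3K4me3 had 0.909% higher and 5.63% lower in Zbtb11KO, and 0.999% and 6.51% in Zfp131KO. Called by a 95% interval around the table median in place of the adjusted p, the Zfp131KO split was 89 higher and 47 lower. The direction of the SIN3A table for Zfp131KO could not be checked against event lists.

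A pair of SIN3A falls stood at events with many wildtype reads. By Wipi2, an autophagy gene (chr5:142668120, 128.9 ZBTB11 reads), SIN3A was not listed in Zbtb11KO and had 220.8 reads in wildtype. The authors' deposited DESeq2 tables gave −1.68 ± 0.28 in Zbtb11KO (SE, log2, adjusted p = 9.53e-07) and −1.58 ± 0.30 in Zfp131KO (adjusted p = 4.02e-05). By Dlgap3, a gene of the synaptic scaffold, SIN3A had 77.6 reads in Zbtb11KO and 213.7 in wildtype, with log2 −1.54 and −0.99 in the same tables. Tns3 (−1.09 and −1.35) also fell in both of the authors' deposited tables, but no SIN3A event was listed within 500 bp in Zbtb11KO or wildtype. Llgl2, a gene of epithelial polarity, rose by 0.88 in Zbtb11KO and 1.04 in Zfp131KO. Rab6b (1.11) and Tmem140 (1.10) rose in the authors' deposited table for Zbtb11KO, and Bcas1 (1.20) and Rps6ka2 (1.14) in that for Zfp131KO.

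NELF was lower at most regions of the authors' deposited table for Zbtb11KO, and the sites away from H3K4me3 shared that shift. In the event lists 23.1% of wildtype and 9.8% of Zbtb11KO NELF reads fell in events. The part of enrichment or scaling of the libraries in the shift was not tested. Of 1033 sites, 3 were higher (0.290%) and 313 lower (30.3%), where 0.159% and 49.0% of all regions in the authors' deposited table were, and their median log2 of −1.06 stood beside −1.04 for the whole table. Sites with H3K4me3 had 56.7% lower at a median of −0.96, and regions with neither had 35.6% lower at −1.29. Relative to the table's median, 72 of the sites away from H3K4me3 were higher and 47 lower by a 95% interval. The mean signal, on which the power of a call depends, had a median of 3511 on the table's own scale at sites away from H3K4me3 and 20925 at sites with it. The number of lower calls is therefore not read as a difference in the size of the fall.

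By Srp9, Bhmg1 and Dagla the wildtype NELF events held 228.7, 223.2 and 202.5 reads, and none was listed in either single knockout or in double knockout cells. The authors' deposited DESeq2 table for Zbtb11KO gave log2 −2.33 ± 0.45 by Srp9 (SE, adjusted p = 2.55e-05), and −2.13 and −2.03 by Bhmg1 and Dagla. Among regions at or above the median signal the largest fall was by Prrc2b (−2.52, adjusted p = 1.47e-07 in the same DESeq2 table). At Nsfl1c, the site with the most ZBTB11 reads, NELF fell by 1.24 ± 0.32 (SE, log2, adjusted p = 0.00152 in the authors' deposited DESeq2 table), with 379.6 reads in Zbtb11KO and 911.9 in wildtype. SIN3A at Nsfl1c was 0.34 ± 0.16 in Zbtb11KO (adjusted p = 0.199) and 0.54 ± 0.17 in Zfp131KO (adjusted p = 0.0251), and no H3K27ac change passed the DESeq2 test there. The NELF table of Zfp131KO was not used here, since the deposited file repeats that of Zbtb11KO.

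A pair of loci combined several targets. The first is the group of 12 sites between Tubb3, a neuronal tubulin gene, and Def8, which spans 6035 bp (chr8:123426637-123432672). ZBTB11 had 48.5 to 89.7 reads at these sites, and each was near 6 to 8 lists, among them all 12 near CHD4, SIN3A, NELF, SETD1A, POL2S5P and ZFP131. CHD4 events held 201.3 to 431.8 reads in Zbtb11KO, at most 65.1 in Zfp131KO and 84.4 to 210.3 in wildtype. The Zfp131KO reads, from the list deposited under both CHD4 and SIN3A, lay below those of both other genotypes. The ranges of Zbtb11KO and wildtype touched. H3K27ac domains held 67 to 327 reads in Zbtb11KO, were not listed in Zfp131KO and held at most 102 in wildtype. H3K27me3 domains held 90 to 333 reads in Zbtb11KO, were not listed in Zfp131KO and held at most 16 in wildtype. NELF events held 160.2 to 237.1 reads in Zbtb11KO and 178.6 to 348.8 in wildtype and were not listed in Zfp131KO or the double knockout.

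In the authors' deposited tables, CHD4 was called higher at 12 of these 12 sites in Zbtb11KO (log2 1.03 to 1.51) and lower at 12 of 12 in Zfp131KO (−2.79 to −1.89). SIN3A was called higher at 12 of 12 in Zbtb11KO (1.16 to 1.51), and the table for Zfp131KO holds no region there. H3K27me3 was higher at 10 of 12 in Zbtb11KO (1.32 to 2.55 at the called sites) and lower at 2 of 2 in Zfp131KO, and H3K27ac was higher at 3 of 12 in Zbtb11KO and lower at 8 of 11 in Zfp131KO (−3.21 to −1.97 at the called sites). NELF did not pass the test at any of the 12 in Zbtb11KO (−0.12 to 0.59), against a table median of −1.04. The 12 sites share regions and are 1 locus. The group had been noticed by these values, and what sets it apart was not tested.

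The second is a site 468 bp from an end of Peg13, an imprinted noncoding RNA gene (chr15:72810792, 35.9 ZBTB11 reads). It was near no list in wildtype, and its nearest wildtype H3K4me3 domain lay 249443 bp away. H3K27ac held 88 reads in Zbtb11KO, 118 in Zfp131KO and was not listed in wildtype. The authors' deposited DESeq2 tables gave H3K27ac log2 3.22 ± 0.49 in Zbtb11KO and 3.28 ± 0.58 in Zfp131KO (SE, adjusted p = 5.92e-09 and 5.76e-07). SIN3A in the authors' deposited DESeq2 tables was 3.33 ± 0.35 and 3.55 ± 0.33 (adjusted p = 8.41e-17 and 1.22e-21). CHD4 rose by 1.37 in Zbtb11KO and stood at 1.03 in Zfp131KO (adjusted p = 0.0494 and 0.097, DESeq2), and NELF rose by 1.01 in Zbtb11KO (adjusted p = 0.0355). H3K27ac and SIN3A passed the test in both knockouts, and CHD4 and NELF in Zbtb11KO, with CHD4 close to the limit. No NELF event was listed within 500 bp in wildtype or in any knockout.

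Listing by genotype gives the same sites without the tables, with list lengths that differ. NELF was near 133 sites in Zbtb11KO, 196 in Zfp131KO, 74 in double knockout cells and 908 in wildtype, while the lists hold 18007, 20262, 9945 and 60915 events. H3K27ac was near 663 sites in Zbtb11KO, 730 in Zfp131KO and 659 in wildtype, from lists of 42018, 44455 and 48838 domains. CHD4 was near 174, 332 and 133 sites in those genotypes, from 4796, 12492 and 7687 events, where the Zfp131KO list was deposited under SIN3A as well. H3K27me3 was near 347, 329 and 241, from 58995, 54721 and 43444 domains, and SIN3A near 734 in Zbtb11KO and 861 in wildtype. NELF differed most between knockouts and wildtype, as did the length of its lists. Of the H3K27ac sites, 411 were listed in both Zbtb11KO and wildtype, 252 in Zbtb11KO alone and 248 in wildtype alone.

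**Figure D5:**
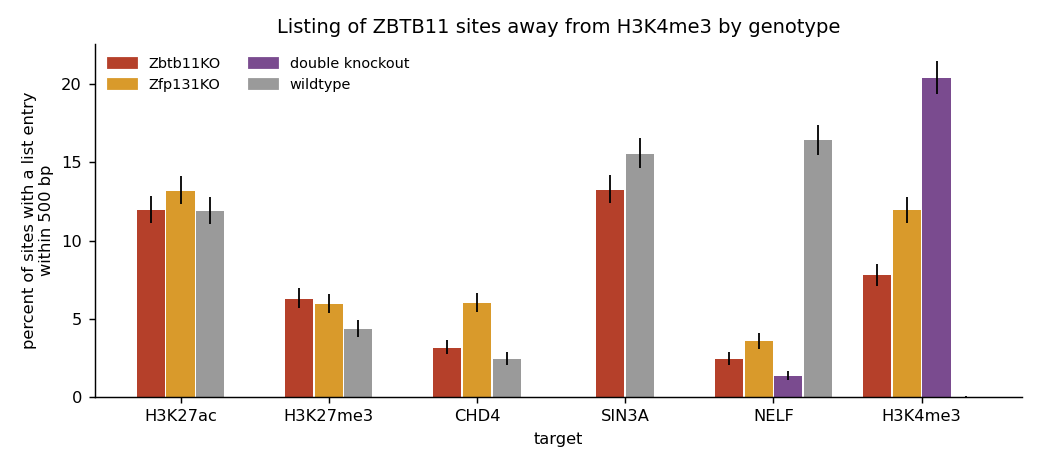
Percent of the 5533 ZBTB11 sites away from H3K4me3 with a list entry within 500 bp, by target and genotype, with Wilson 95% intervals that cover counting error only. NELF is lowest in the double knockout and highest in wildtype; H3K4me3 is at 0 in wildtype because the sites were chosen so, and genotypes with no bar have no list used here.

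H3K4me3 itself was used to choose the sites, so its knockout values are given without a test. A knockout H3K4me3 domain lay within 500 bp of 431 sites in Zbtb11KO, 660 in Zfp131KO and 1130 in double knockout cells, and of 0 in wildtype by the rule. In the authors' deposited tables, 52 of 271 sites with an adjusted p were called higher and 2 lower in Zbtb11KO, where all regions had 21.5% and 13.0%, and 267 of 660 were higher and 0 lower in Zfp131KO, where all regions had 15.1% and 11.4%. The choice of sites without wildtype H3K4me3 favours higher calls by construction. Higher calls were at 19.2% of the sites in Zbtb11KO and 40.5% in Zfp131KO. Regions with neither ZBTB11 nor H3K4me3 had 37.0% higher in Zbtb11KO and 39.3% in Zfp131KO. The difference in Zbtb11KO was not tested. Most of the new domains were small, with a median of 15 reads in Zbtb11KO, 20.5 in Zfp131KO and 36 in double knockout cells, against 1875, 2272.5 and 3961 beside sites with H3K4me3. Some were not: near Rtkn the domain held 677 reads in Zbtb11KO, 1874 in Zfp131KO and 2579 in double knockout cells, near Peg13 430, 2106 and 4610, and near Coro1c 558, 936 and 4292.

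Sites away from H3K4me3 were not confined to a class of genes. Of all 21887 protein-coding genes, 6440 (29.4%) had such a site within 50 kb of an end. The share was 10 of 28 pluripotency genes, 6 of 13 formative and primed genes, 7 of 14 primitive endoderm genes, 6 of 20 neural genes and 5 of 18 mesoderm and endoderm genes. It was 5 of 15 p53 targets, 8 of 20 mitochondrial ribosome genes and 3 of 14 genes that encode the profiled factors and their partners. These are counts, and no difference from all genes was tested.

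Near pluripotency genes the sites had 120.9 and 94.2 ZBTB11 reads by Esrrb, a nuclear receptor of naive cells, and 70.7 within 50 kb of Pou5f1. Near genes of the formative state they had 271.2 reads by Otx2, 220.3 by Lin28b and 84.5 by Fgf5. At the Otx2 site H3K27ac rose by 1.71 ± 0.63 in Zbtb11KO (SE, log2, adjusted p = 0.0287) and NELF fell by 1.65 ± 0.54 (adjusted p = 0.00959), in the authors' deposited DESeq2 tables. Among the sites named here by gene list, the Gm19583 site printed above had the most reads (1575.1). It lies within 50 kb of Pdgfra, which is in the primitive endoderm list. Other sites of that list were by Lamc1 (1046.9 reads), a laminin gene, and Hnf4a (284.4 reads). A site 42069 bp from Mrpl1, of the mitochondrial ribosome, had 1086.1 reads, and a site by Mdm2, the regulator of p53, had 121.6. Among genes of the profiled factors, Zbtb11 had a site of 27.3 reads and Chd4 one of 47.0.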

How the data were processed

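ChIP-seq was deposited for 48 libraries in 24 groups of 2. Alignment with Bowtie 1.0.1 to mm10, DESeq2 1.28.1 and bedtools are named in the submitters' processing notes. Factor event lists hold, per the file headers, read counts summed over replicates, a scaled control count, a log2 fold and a log2 p score, none scaled to depth. Domain lists hold the authors' read counts and p-values per domain. The authors' deposited comparison tables give mean signal, log2 fold change with SE, a Wald score, p-value and adjusted p-value per region.

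Events on unplaced sequences (16) were left out. Distances were computed with Python 3.11.15, pandas 2.3.3 and NumPy 2.4.6, and the search was tested on 2000 simulated points, of which 0 differed. Promoter windows of 1 chromosome were not used here. An entry within 500 bp counted as near, and intervals are Wilson 95%, covering counting error only. The authors' adjusted p under 0.05 was the call. The named sites were those with the most ZBTB11 reads per class and the largest called changes per table among regions at or above the table's median mean signal, at most 4 in each direction. The members and lists were chosen with earlier results of these data known, and the loci by Tubb3 and the repeats after their values were seen. The NELF table of Zfp131KO repeats that of Zbtb11KO and was not used here. The event lists deposited for CHD4 and for SIN3A in Zfp131KO are identical. That list was used here as CHD4 and not as SIN3A, and which target its reads belong to was not tested.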

Additional observations from a re-analysis of the deposited data

How the results depend on the processing

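Directions held in most settings, while shares and counts moved with the distance and stringency chosen. The files hold 1 value per site and group, so leaving out a library and refitting counts were not run. No paired analysis was possible because the files hold no site values per library. With events at or above the median reads, 2015 sites remained. Counting all annotated genes, the median distance to a gene end was 9664 bp.

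With overlap (domains) or 100 bp (events) as near, the shares were 4.64% for H3K27ac, 1.23% for H3K27me3, 0.759% for CHD4, 6.16% for SIN3A, 6.60% for NELF, 1.5001% for SETD1A, 6.81% for POL2S5P and 0.343% for ZFP131. With 1000 bp they were 14.4%, 5.51%, 3.42%, 19.4%, 20.3%, 3.85% and 21.8% for the first 7 of these. Over 2000 bp from H3K4me3 they were 10.2% for H3K27ac, 3.66% for H3K27me3, 13.6% for SIN3A, 14.8% for NELF and 16.3% for POL2S5P. With stricter lists they were 7.23% for H3K27ac, 2.35% for H3K27me3, 1.12% for CHD4, 3.87% for SIN3A, 2.87% for NELF, 0.813% for SETD1A, 12.2% for POL2S5P and 0.217% for ZFP131. At or above the median reads they were 1.54% for CHD4, 13.8% for NELF, 2.33% for SETD1A and 16.7% for POL2S5P, and over 1 kb from every gene end 14.6% for SIN3A and 2.52% for SETD1A.

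Counts of calls are given as higher and lower, Zbtb11KO before Zfp131KO. At or above the median ZBTB11 reads they were 77 and 26, then 86 and 35 for H3K27ac, 31 and 8, then 20 and 11 for H3K27me3, 22 higher, then 13 and 11 for CHD4, 30 and 10, then 10 and 4 for SIN3A, and 0 and 105 for NELF. With regions that cover the event they were 121 and 29, then 162 and 26 for H3K27ac, 16 and 1, then 9 and 10 for H3K27me3 (median log2 −0.23 in Zfp131KO, a reversed direction), 37 and 0, then 33 and 20 for CHD4, 14 and then 5 lower for SIN3A, and 0 higher for NELF. At or above the median signal they were 90 and 22, then 100 and 34 for H3K27ac, 19 and 11, then 35 and 9 for H3K27me3, 43 and 0, then 31 and 18 for CHD4, 9 and 4, then 11 and 4 for SIN3A, and 1 and 30 for NELF.

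Near a wildtype entry the higher calls were 73 (median −0.11) and 119 (−0.10) for H3K27ac, 5 (−0.32) and 3 (−0.46) for H3K27me3, 14 (−0.044) and 1 (−0.47) for CHD4, 32 (−0.030) for SIN3A in Zbtb11KO and 0 for NELF, and these negative medians reverse the direction over all sites. By construction this setting leaves out sites listed only in a knockout. At an adjusted p under 0.01 by DESeq2 the counts were 40 and then 63 lower for H3K27ac, 34 and 6, then 45 and 10 for H3K27me3, 35 and 0, then 29 higher for CHD4, 46 and 9, then 24 higher for SIN3A, and 116 lower for NELF. Centred on each table's median they were 104 and 42, then 107 and 53 for H3K27me3, 100 and 6, then 100 and 53 for CHD4, 228 and 77, then 89 and 47 for SIN3A, and 72 and 47 for NELF. Without the 12 sites by Tubb3, CHD4 was lower at 22 in Zfp131KO. This exclusion was chosen after seeing the data. The cause of the other moves was not tested.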
